A study of Mus musculus with 9 samples.

Results

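The genes described here are 10 genes of the heart muscle contractile apparatus, measured by RNA sequencing in the mouse aortic arch. They were taken by name from the deposited table of 21989 genes, with earlier results of these data known, and all 10 were found. They are Myh6, Myh7, Myl2, Myl3 and Mybpc3 of the thick filament, Actc1, Tnnt2, Tnni3 and Tnnc1 of the thin filament, and Ryr2 of the calcium store. There were 9 libraries, 3 in each of 3 groups. The control group was C57BL/6J mice that ate standard diet. The model group was ApoE-/- mice given a high-fat diet for 15 weeks, and the high dose group was ApoE-/- mice on that diet that also received ZCL at 5.12 g/kg/day by gavage for 15 weeks. ZCL is the label's short name for the preparation, and the plant named by the series is Ziziphora clinopodioides Lam. All mice were acclimated for 3 weeks, and all libraries carry batch label 1. Model differed from control in both genotype and diet, and their effects cannot be told apart. No label states age or sex, or ties each library to an animal of its own. The p-values therefore reflect only how these samples scatter, and that scatter may be technical.

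Heart muscle contracts when myosin heads of the thick filament pull on actin of the thin filament. Calcium leaves the sarcoplasmic reticulum through the ryanodine receptor RYR2, binds troponin C, and so shifts tropomyosin to free the myosin binding sites. The wall of the aorta contracts with smooth muscle, which has no sarcomeres and uses other myosin and actin genes. The arch lies next to the heart, and in mice heart muscle also sheathes the pulmonary veins. In bulk tissue, fewer cells of a type and less RNA per cell cannot be told apart.

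The 10 genes lie on 7 chromosomes in GRCm38, in the annotation GENCODE M21. Myh6 (chr14:54941921-54966927) and Myh7 (chr14:54970684-54994626) are neighbours on the minus strand, 3756 bases apart. Tnnc1 lies on the same chromosome at chr14:31208312-31211729. Mybpc3 (chr2:91118144-91136516) and Actc1 (chr2:114047282-114053548) are both on chromosome 2, on opposite strands. The other 5 genes are Myl2 at chr5:122100951-122113472, Myl3 at chr9:110741861-110769798, Tnnt2 at chr1:135836354-135852260, Tnni3 at chr7:4518305-4524229 and Ryr2 at chr13:11553102-12106945.

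The promoters of 4 members are shown because heart muscle genes share a few known control motifs, and these 4 differ in which of them they hold. Each is the 150 bases before a RefSeq transcription start on GRCm38.p6, written 5′ to 3′ on the strand of the gene. Capitals mark a CArG box (bound by serum response factor), a MEF2 box, GATAA (the GATA factor motif) or CATTCC (the M-CAT motif, bound by TEAD factors), found on either strand. None of the capitalised motifs overlap one another.
Myl3 (chr9:110763528-110763677, plus strand): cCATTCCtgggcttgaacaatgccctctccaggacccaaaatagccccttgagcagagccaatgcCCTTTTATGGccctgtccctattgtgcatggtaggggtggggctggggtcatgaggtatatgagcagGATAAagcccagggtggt
Mybpc3 (chr2:91117994-91118143, plus strand): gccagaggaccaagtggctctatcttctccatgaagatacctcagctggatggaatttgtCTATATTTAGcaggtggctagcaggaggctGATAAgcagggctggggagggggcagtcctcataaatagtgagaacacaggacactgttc
Actc1 (chr2:114052876-114053025, minus strand): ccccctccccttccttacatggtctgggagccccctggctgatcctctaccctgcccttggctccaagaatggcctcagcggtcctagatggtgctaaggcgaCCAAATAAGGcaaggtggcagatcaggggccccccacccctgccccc
Tnnc1 (chr14:31208162-31208311, plus strand): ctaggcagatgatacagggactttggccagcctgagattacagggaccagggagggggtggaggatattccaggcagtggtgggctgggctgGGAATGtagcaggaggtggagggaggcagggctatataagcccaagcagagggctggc

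Over the full 250 bases before each start, the 10 genes had 13 RefSeq windows. CATTCC was found on either strand at Myh6, Myh7, Myl3, Tnnt2 and Tnnc1, in 5 of the 13 windows, and in 12.6% of all 32851 windows in the table. The CArG box was found at Myl3 and Actc1, in 2 of the 13 windows, and in 1.47% of all windows. The MEF2 box was found at Mybpc3, in 1 of the 13 windows and in 2.92% of all. GATAA was found at Myl2, Myl3, Mybpc3 and Tnnt2 and in 22.6% of all windows. TATAAA was found at Myl2 and in 12.4% of all windows, and CANNTG, the E-box, at 9 of the 10 genes and in 66.2% of all windows. The RefSeq windows of Myl2 end at chr5:122092723 and chr5:122093188, far upstream of its GENCODE start at chr5:122100951. The matches given for Myl2 are therefore not next to that GENCODE start. The windows of Myh6, Myl3, Actc1 and Tnni3, and the Tnnt2 window ending at chr1:135836988, lay inside the GENCODE gene, past its first base. That of Myl3 ended at chr9:110763677, far downstream of its GENCODE start at chr9:110741861. In 10 of the 13 windows the first 30 bases after the start were found in a GENCODE transcript of the gene. A match describes these letters and shows no binding, and no 1 motif was common to the 10 genes.

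Levels are FPKM, fragments scaled by gene length and by library, so levels of different genes can be set side by side within a library. Because low values fell on whole multiples of 1 fragment, fragment counts could be recovered, for all 10 members in all 9 libraries. The genes so recovered held between 11653106 fragments (control 2) and 20679832 (model 1) per library. Intervals given for 1 library are exact Poisson 95% intervals on these counts and cover counting error only. Apoe, the gene disrupted in both ApoE-/- groups, stood at 340 to 1006 FPKM in control, 18.9 to 33.4 in model and 25.4 to 93.7 in high dose. Smooth muscle markers were present in every library, with a summed level of the 9 genes between 707 FPKM in high dose 1 and 6394 FPKM in model 1, and the 6 endothelial markers summed to 222 to 509 FPKM.

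The 10 genes were abundant in 4 libraries and scarce in 5, and this division ran through the control and high dose groups. Their summed level was 14510 FPKM in control 1, 4745 in control 2 and 26.6 in control 3. It was 54.1, 24.9 and 38.6 FPKM in model 1, 2 and 3, and 24.0, 6361 and 11413 FPKM in high dose 1, 2 and 3. Control 3 and high dose 1 therefore lay within or beside the range of the model libraries, while the other libraries of their groups lay far above it. As a share of the summed FPKM of all genes, the 10 genes took 3.37% in control 1, 2.47% in high dose 3, 1.29% in high dose 2 and 1.10% in control 2, and 0.00562% to 0.0121% in the other 5 libraries. In fragments this was 531861 in control 1 and 795 in control 3.

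**Figure D1:**
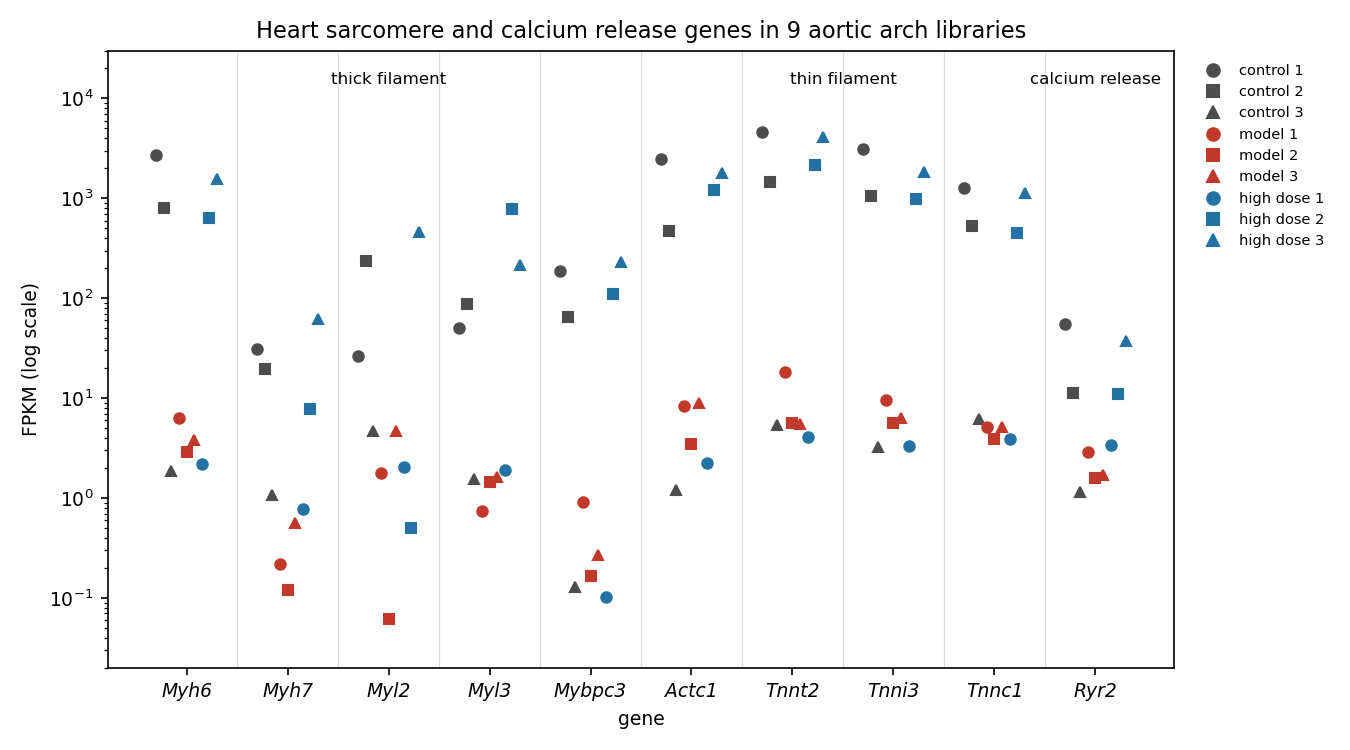
FPKM of the 10 heart muscle genes (log axis), grouped by role, with 1 point per library. Colour gives the group and marker shape the replicate number. For most genes the points form an upper set of control 1, control 2, high dose 2 and high dose 3 and a lower set of the other 5 libraries. Myl2 in high dose 2, at 0.504 FPKM, lies in the lower set.

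Of the thick filament genes, Myh6 encodes the fast alpha myosin heavy chain, the main heavy chain of the adult mouse heart. Myh6 stood at 2729, 807 and 1.85 FPKM in control 1, 2 and 3, at 6.34, 2.89 and 3.80 in model, and at 2.18, 634 and 1554 in high dose. The lowest library, control 3, had 151 fragments of Myh6 and the highest, control 1, had 274924, a 1472-fold range of FPKM. Control 3 was below all 3 model libraries, and high dose 1 was below them too, so neither group was separated from model.

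Myh7 encodes the slow beta heavy chain, which the mouse ventricle uses before birth and slow skeletal muscle uses in the adult. Myh7 stood at 31.3, 19.6 and 1.07 FPKM in control, at 0.217, 0.120 and 0.569 in model, and at 0.785, 7.86 and 61.6 in high dose. Unlike Myh6, it was lower in every model library than in any library of the other groups. The separation was narrow at the edge. Control 3 (95% interval 0.859 to 1.32) lay above model 3 (0.427 to 0.742) beyond counting error, while the interval of high dose 1 (0.623 to 0.976) overlapped that of model 3.

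Mybpc3 encodes cardiac myosin binding protein C, which sits on the thick filament and tunes crossbridge cycling. Mybpc3 stood at 188, 65.3 and 0.128 FPKM in control, at 0.923, 0.167 and 0.269 in model, and at 0.102, 111 and 230 in high dose. It was the member present at 1 FPKM or more in the fewest libraries, 4 of 9. In control 3 and in high dose 1 it rested on 7 fragments each.

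Myl2 encodes the regulatory light chain of the ventricle and of slow skeletal muscle. Myl2 stood at 26.7, 236 and 4.74 FPKM in control, at 1.78, 0.0611 and 4.65 in model, and at 2.05, 0.504 and 457 in high dose. Its order of libraries was its own. High dose 2, rich in the other 9 members, held 7 fragments of Myl2, and control 1, the richest library for Myh6, held 411 against 2689 in control 2. Model 2 held 1 fragment, and the range over libraries was 7482-fold. All control libraries were above all model libraries, but the intervals of control 3 (3.60 to 6.11) and model 3 (3.61 to 5.91) overlapped almost fully.

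Myl3 encodes the essential light chain of the ventricle and of slow skeletal muscle. Myl3 stood at 50.6, 86.6 and 1.54 FPKM in control, at 0.738, 1.43 and 1.63 in model, and at 1.91, 782 and 217 in high dose. Its highest library was high dose 2, the one nearly without Myl2. All high dose libraries were above all model libraries, although the intervals of high dose 1 (1.27 to 2.76) and model 3 (1.02 to 2.47) overlapped.

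Of the thin filament genes, Actc1 encodes the alpha actin of heart muscle. Actc1 stood at 2479, 470.0 and 1.21 FPKM in control, at 8.26, 3.45 and 8.98 in model, and at 2.27, 1222 and 1813 in high dose. Control 3 and high dose 1 were again below all 3 model libraries.

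Tnnt2 encodes cardiac troponin T, which ties the troponin complex to tropomyosin. Tnnt2 stood at 4610.2, 1451 and 5.37 FPKM in control, at 18.2, 5.61 and 5.52 in model, and at 4.09, 2162 and 4082 in high dose. It was the most abundant member in 6 of the 9 libraries. Means hid this spread: they were 2022 ± 2355 FPKM in control, 9.78 ± 7.31 in model and 2083 ± 2040 in high dose (SD, n = 3), with an SD close to the mean or above it in the 2 groups that held both kinds of library.

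Tnni3 encodes cardiac troponin I, the inhibitory subunit and a marker of mature heart muscle. Tnni3 stood at 3083, 1065 and 3.28 FPKM in control, at 9.58, 5.62 and 6.33 in model, and at 3.32, 986 and 1841 in high dose. As for Tnnt2, control 3 and high dose 1 lay below every model library.

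Tnnc1 encodes the calcium binding subunit of heart and slow skeletal muscle. Tnnc1 stood at 1257, 535 and 6.24 FPKM in control, at 5.12, 3.92 and 5.12 in model, and at 3.92, 445 and 1120.2 in high dose. Control lay above model in every library, by a margin inside counting error: the interval was 4.73 to 8.09 in control 3 and 4.03 to 6.41 in model 1. High dose 1 was at the level of model 2.

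Ryr2 encodes the calcium release channel of heart muscle and is also used by neurons. Ryr2 stood at 55.6, 11.2 and 1.15 FPKM in control, at 2.90, 1.61 and 1.70 in model, and at 3.39, 11.0 and 37.6 in high dose. Its range was the narrowest of the 10, 48.5-fold. High dose 1 (95% interval 3.17 to 3.61) was above model 1 (2.72 to 3.08) and the other model libraries beyond counting error. High dose 1 also held the most RNA of the 5 sympathetic and catecholamine markers, summed at 1927 FPKM against 0.816 to 2.25 in model, 21.6 to 361 in control and 4.03 to 41.1 in the other high dose libraries. The part of these cells in the Ryr2 level was not tested.

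The members did not keep fixed proportions. Of their summed FPKM, Tnnt2 took 14.3% to 35.8% over the 9 libraries and Myh6 6.97% to 18.8%. Tnnc1 led in control 3, Tnni3 in model 2 and Actc1 in model 3. Mybpc3 stayed between 0.425% and 2.02%. The light chains, Myh7 and Ryr2 varied far more: Myl2 took 17.8% in control 3 and 0.00792% in high dose 2, Myl3 0.349% to 12.3%, and Myh7 0.124% to 4.03%. Ryr2 took 0.173% in high dose 2 and 14.1% in high dose 1.

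**Figure D2:**
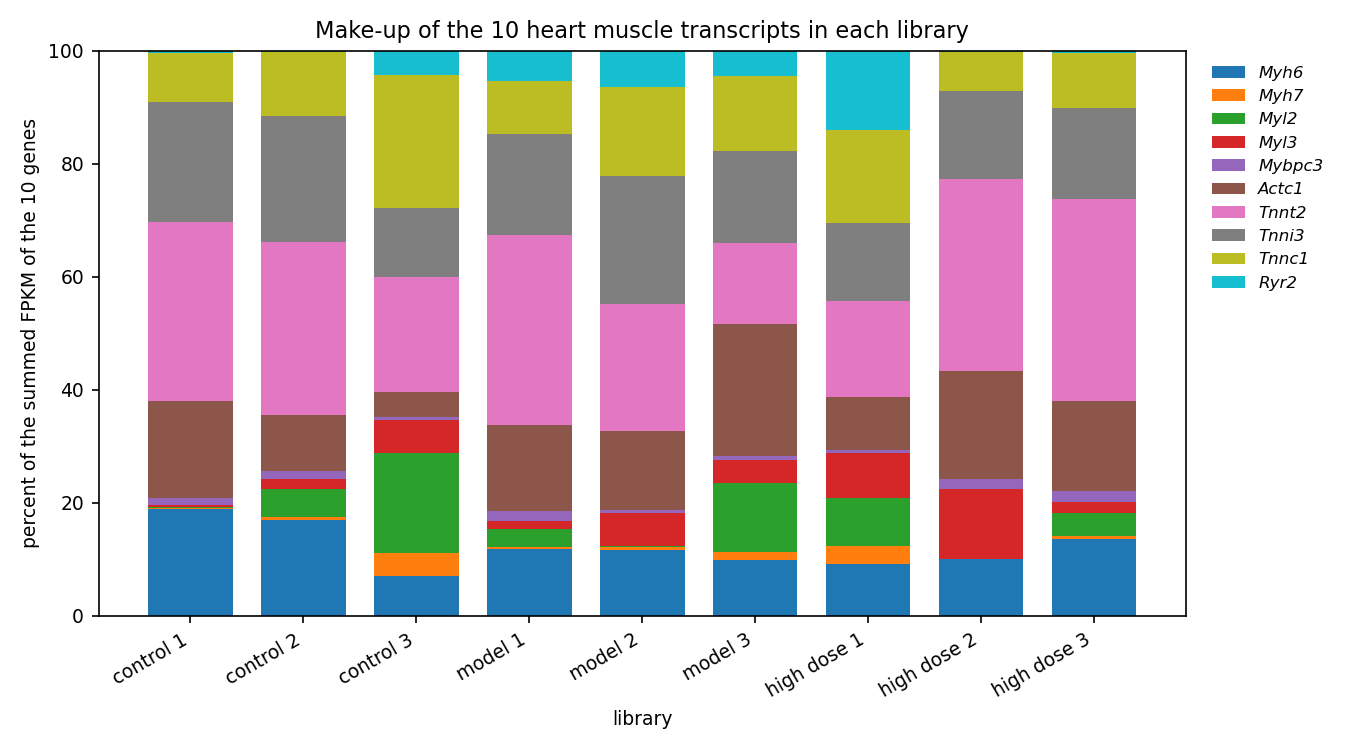
Share of each gene in the summed FPKM of the 10 genes (percent, stacked to 100), 1 bar per library. Troponin genes and Actc1 fill most of each bar. The Myl2 band is widest in control 3 (17.8%) and is not visible in high dose 2 (0.00792%), where the Myl3 band is 12.3%.

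Ratios within a library do not depend on how the library was scaled. The log2 ratio of Myh7 to Myh6 was -6.45 and -5.36 in the libraries control 1 and 2, and -6.33 and -4.66 in high dose 2 and 3. In the other libraries it was -0.79 in control 3, -4.87, -4.58 and -2.74 in model 1, 2 and 3, and -1.47 in high dose 1. Myh6 was thus above Myh7 in every library, and Myh7 came nearest in control 3, at 57.8% of Myh6, against 1.15% in control 1. Of the 50-base windows of the Myh6 transcripts, 20.2% also occur in Myh7, and 15.6% of those of Myh7 occur in Myh6, so how the authors assigned shared fragments can move the lower gene. No such window was shared between the other members and the paralogs searched.

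Markers of the heart chambers also differed between libraries. Myl7 and Myl4, the atrial counterparts of Myl2 and Myl3, were highest in control 1, at 6861 and 2190.0 FPKM. In the second control library they stood at 2540.4 and 463 FPKM, and in high dose 2 and 3 at 3155 and 537 and at 4632 and 1131. In the other 5 libraries Myl7 ranged from 4.78 to 23.3 FPKM and Myl4 from 2.68 to 6.66. Nppa, the atrial natriuretic peptide gene, stood at 6483, 824, 1433 and 1874 FPKM in those 4 libraries and at 2.17 to 9.35 in the 5. The log2 ratio of Myl2 to Myl7 was below 0 in all 9 libraries. It was -8.01 and -3.43 in control 1 and 2, -12.61 and -3.34 in high dose 2 and 3, and -0.43, -3.72, -7.46, -1.20 and -1.22 in control 3, model 1, model 2, model 3 and high dose 1. So Myl7 exceeded Myl2 everywhere, by the least in control 3 and by the most in high dose 2. The value of model 2 rests on 1 fragment of Myl2.

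Myl3 followed another course. Its log2 ratio to Myl4 was -5.44 in control 1, -2.42 in control 2 and -2.38 in high dose 3 but 0.54 in high dose 2, the only library where Myl3 exceeded its atrial counterpart. In the remaining libraries it lay between -2.98 and -0.49. Irx4, a ventricular transcription factor gene, and Bmp10, a growth factor gene of the atrium, were looked at after their values were seen. Irx4 had 182 fragments in high dose 3 and 25 in control 2, the libraries with the most Myl2, and 0 to 7 in the others. Bmp10 had 3363 fragments in control 1, 73 in control 2 and 0 to 3 in the others.

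**Figure D3:**
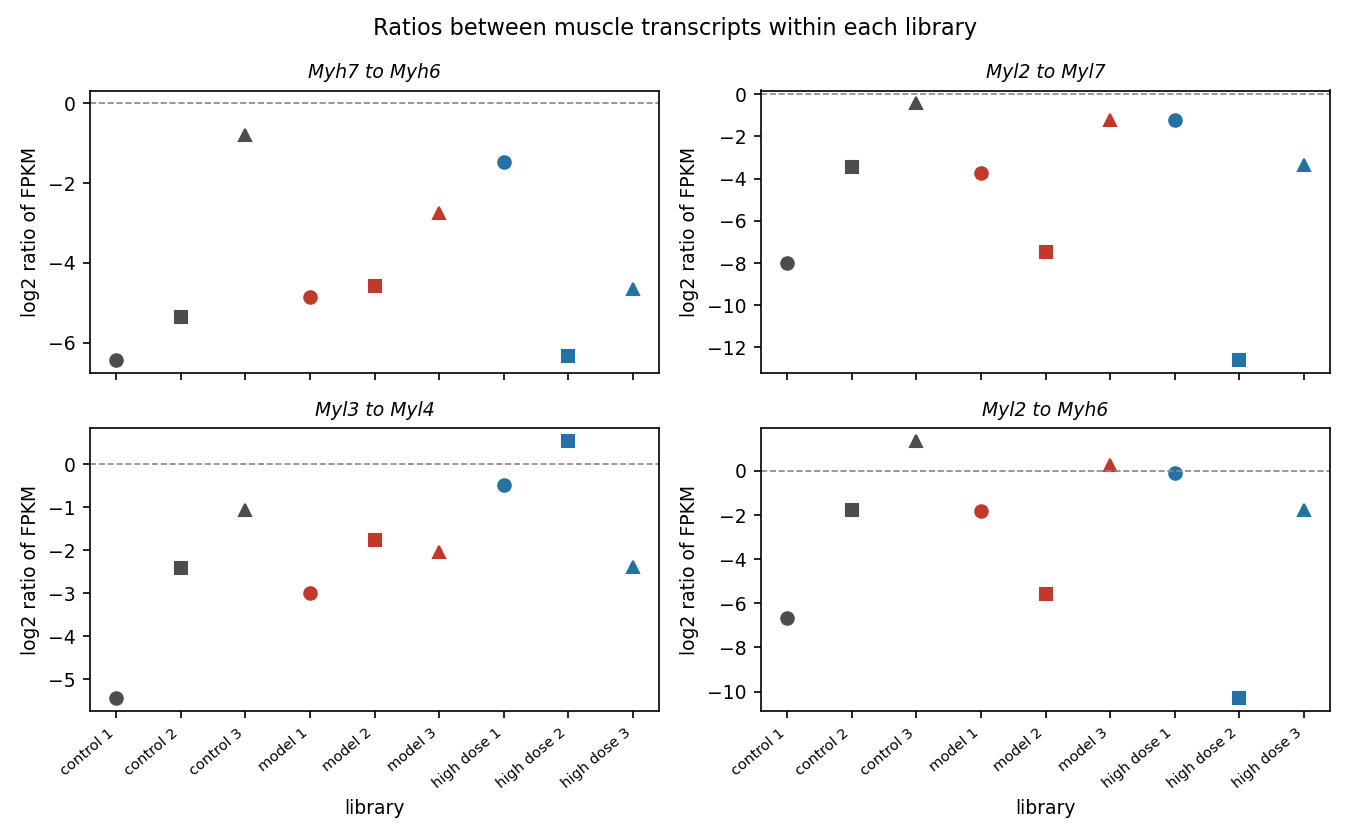
log2 ratio of FPKM between pairs of muscle genes within each library (vertical axis), with libraries along the horizontal axis, colour for group and the dashed line at equal levels. The ratio of Myl2 to Myl7 falls to -12.61 in high dose 2, while that of Myl3 to Myl4 reaches 0.54 in the same library.

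Set against genes of other muscle types, the members changed places between libraries. Actc1 was above Acta2, the smooth muscle actin gene, in 3 libraries, with log2 ratios of 1.72 in control 1 and of 0.32 and 2.16 in high dose 2 and 3. It was below Acta2 in control 2, at -1.44, and by far in the other 5, at -9.09 to -6.29. Against the skeletal actin gene Acta1, the log2 ratio of Actc1 was 9.51, 3.99 and 4.25 in control 1, control 2 and high dose 3, but -1.60 in high dose 2 and -5.89 to -1.26 in the other 5. Acta1 itself reached 3707 FPKM in high dose 2, against 3.41 to 135 in the other libraries.

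Of the troponins, Tnnc1 gave the same view of that library, while Tnnt2 and Tnni3 stayed above the counterparts given here. Tnnc1 exceeded its fast skeletal counterpart Tnnc2 in control 1, control 2 and high dose 3, with log2 ratios of 10.31, 7.71 and 6.85, and was below it in high dose 2, at -3.25. It was also below in control 3, model 3 and high dose 1, at -3.44, -3.96 and -2.61, and above in model 1 and model 2, at 0.64 and 2.95. Tnnt2 exceeded Tnnt3 of fast muscle by 10.73, 7.19 and 8.02 in control 1, control 2 and high dose 3 on the log2 scale and by 0.40 in high dose 2. That ratio was -3.35 in control 3, 2.37, 1.75 and -3.51 in model 1, 2 and 3, and -2.15 in high dose 1. Tnni3 exceeded Tnni1, the slow skeletal and fetal heart form, in all 9 libraries, by 1.45 to 13.34, with 2 to 48 fragments of Tnni1 behind the ratios. Tnnt2 was above Tnnt1 of slow muscle in all 9 too, by 0.053 to 9.13. Ryr2 was above Ryr1, the skeletal channel, in 8 libraries and below it in high dose 2, at -0.87.

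High dose 2 thus carried 2 kinds of striated muscle transcript. Its 15 fast skeletal markers summed to 14678 FPKM and its 5 slow skeletal markers to 382 FPKM. The fast markers summed to 114 to 349 FPKM in control, 39.4 to 589 in model and 137 to 336 in the other high dose libraries, and the slow markers to 9.90 to 17.2, 6.34 to 29.8 and 3.43 to 14.6. The 5 airway epithelium markers summed to 22376 FPKM in high dose 2 and 8432 in control 2, against 11.1 to 77.9 elsewhere. Since Myh7, Myl2, Myl3 and Tnnc1 are also genes of slow skeletal muscle, the part of skeletal muscle in their levels was not tested. The log2 differences of high dose against model without high dose 2 were 3.04 for Myh7, 3.50 for Myl3 and 3.87 for Myl2. With it they were 2.95, 5.15 and 2.33. For Tnnc1 the difference ran from 3.04 to 6.96 with each library left out. High dose 2 held only 7 fragments of Myl2, and these values do not measure the part of skeletal muscle.

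In model against control, the question was how the arch of ApoE-/- mice on a high-fat diet differed from that of C57BL/6J mice. All 10 members had lower fitted means in model, with a median log2 difference of -4.15 on the log2(FPKM + 1) scale, where the median over all 12895 genes tested was -0.010. None passed limma's test at an adjusted p under 0.05, and neither did any of the 12895 genes (0%). The largest differences were those of Tnnt2, at -5.22 ± 2.91 (standard error, adjusted p = 0.769), and Myh6, at -5.16 ± 2.81 (adjusted p = 0.764). Ryr2 had the smallest, at -1.92 ± 1.13 (adjusted p = 0.777). The smallest p was that of Myh7, with -3.11 ± 1.32, an unadjusted p of 0.0440 and an adjusted p of 0.754 in limma. It was the 1 of the 10 under an unadjusted 0.05, which 821 of all genes reached. The other members, Myl2 at -3.71, Myl3 at -3.34, Mybpc3 at -4.09, Actc1 at -4.21, Tnni3 at -4.91 and Tnnc1 at -4.90, had adjusted p values of 0.761 to 0.823.

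In 3 of the 10, Myh7, Myl2 and Tnnc1, all control libraries lay above all model libraries, as in 9.06% of all genes tested. None of the 10 lay wholly above, as 6.91% of all genes did. The count depended on control 3: without it, all 10 were separated, as were 24.8% of all genes in that direction, and their median difference was -6.74. Without control 1 the median was -2.91, and without model 3 the separated members were 4, with 11.9% of all genes. With libraries weighted by their fit to the group means (limma array weights), 7 of the 10 passed, with adjusted p between 0.0434 and 0.0448, and so did 5.3% of all genes. Those 7 were Myh6, Myh7, Mybpc3, Tnnt2, Tnni3, Tnnc1 and Ryr2. In that fit control 3 had a weight of 0.379 and model 2 a weight of 5.92.

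In high dose against model, which asks what ZCL added in ApoE-/- mice on the high-fat diet, all 10 members had higher fitted means in high dose. The median log2 difference was 4.60, beside 0.00080 over all genes. None of the 10 passed limma's test, nor did any of the 12895 genes (0%). Myl3 had the smallest p, with 5.15 ± 1.99 (95% confidence interval 0.63 to 9.67), an unadjusted p of 0.0300 and an adjusted p of 0.350 in limma. It was the 1 member under an unadjusted 0.05, as were 1729 of all genes. Tnnt2 differed by 5.24 ± 2.91 (adjusted p = 0.430) and Myl2 by 2.33 ± 2.11 (adjusted p = 0.628), and the other 7 by 2.07 to 4.83 with adjusted p of 0.373 to 0.466. The direction of Myl2 rested on high dose 3, without which its difference was -0.26. In Myh7, Myl3 and Ryr2 all high dose libraries lay above all model libraries, as in 11.7% of all genes, and none lay wholly below, as 10.9% did. With array weights 0 of the 10 passed, and 0.0465% of all genes. Without high dose 1, 9 of the 10, all but Myl2, lay above model without overlap, as did 19.5% of all genes. None of the 10 passed limma's test in that setting. The median difference was 7.18 without high dose 1 and 3.04 without high dose 3. This comparison and the one before share the model libraries.

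In high dose against control, 5 members had higher and 5 lower fitted means, with a median log2 difference of -0.066 beside 0.0022 over all genes. Adjusted p ran from 0.920 to 0.999 in limma, none of the 10 was under an unadjusted 0.05, and 0% of all genes passed. Myl3 was higher by 1.81 ± 1.99 and Myl2 lower, at -1.39 ± 2.11, and Tnnt2 differed by 0.025 ± 2.91, or by -0.047 when FPKM was rescaled to TPM. The intervals were wide: for Myh6 the 95% confidence interval ran from -6.74 to 6.07, which holds large differences of either sign. No member was separated between these groups, where 3.66% of all genes lay higher and 5.02% lower without overlap. Without high dose 1, Myl3 alone of the 10 lay wholly higher, as 9.77% of all genes did, and without high dose 3 Myl2 alone lay wholly lower, as 9.14% did.

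Most other genes of heart muscle had means that differed in the same directions as those of the members. Of 19 further sarcomere, Z-disc and M-band genes, 18 were tested; all 18 had lower means in model than in control (median log2 difference -3.40) and higher means in high dose than in model (3.64), with none called. Tpm1, the alpha tropomyosin gene, stood at 1116 FPKM in control 1 and 96.2 in control 3, and Tcap, of the Z-disc, at 1999 and 52.5. Of the 12 calcium handling genes beside Ryr2, all 12 were lower in model (-1.55) and 11 were higher in high dose than in model (1.59), none of them called. Atp2a2, the calcium pump of the sarcoplasmic reticulum, stood at 1403 FPKM in control 1 and at 55.6 to 85.3 in the 5 libraries poor in the members, and Sln, a small inhibitor of that pump, at 3271 and at 1.53 to 3.91. The levels of Sln in control 2, high dose 2 and high dose 3 were 604, 1478 and 1410 FPKM.

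Of 10 tested channel and junction genes, 9 were lower in model (median -1.50) and 7 higher in high dose than in model (1.55). Of 10 tested heart transcription factor genes, 8 were lower (-1.25) and 6 higher (0.68). Of 12 striated muscle energy genes, among them myoglobin (Mb), 11 were lower (-2.16) and 11 higher (1.78). None of these was called. Nkx2-5, a heart muscle transcription factor gene looked at after its values were seen, had 560, 142, 114 and 167 fragments in control 1, control 2, high dose 2 and high dose 3. It had 0 in the other 5, where 3 fragments would correspond to 0.0833 to 0.135 FPKM. In those 5 libraries the members summed to 795 to 3102 fragments, against 120174 to 531861 in the libraries rich in them. With so few member fragments, 0 fragments of a gene as scarce as Nkx2-5 cannot be read as its absence. Of the same list, and also named after their values were seen, Gata4 had 2 to 32 fragments and Tbx5 130 to 236 in those 5. Irx4 had 0 to 2 there.

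Markers of other tissues varied by library in other ways. Among the 6 tested atrial markers, Myl4, Myl7, Mybphl and Sln were already counted in the sarcomere and calcium lists. The 6 had a median difference of -4.72 in model against control and 4.42 in high dose against model. The median of the fast skeletal markers was -0.034 in the first and 2.31 in the second, and that of the smooth muscle markers 0.14 and -0.92. The 5 brown fat markers summed to 11609 FPKM in control 3 and 3790 in high dose 1, libraries poor in the members. In model, also poor in the members, they summed to 715 to 2443 FPKM, with the lowest sum of all in model 1. In control 1, control 2, high dose 2 and high dose 3 they summed to 767 to 1145 FPKM. The 5 white fat markers summed to 18322 FPKM in control 3 and to 1535 to 12222 elsewhere. Macrophage markers summed to 162 to 624 FPKM in control, 1059 to 4721 in model and 458 to 1983 in high dose, and red cell markers to 8839 to 15940.4, 21372 to 64105 and 2693 to 21257. The 4 ventricular markers summed to 15.7 to 336, 8.44 to 27.0 and 11.3 to 789. Myl2 and Myl3 are among these markers, so the sum partly repeats the members. The 789 of high dose 2 was mostly Myl3, at 782 FPKM, and the 27.0 of model 1 mostly Hey2, at 24.5 FPKM. The part of these tissues in the differences of the members was not tested.

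**Figure D4:**
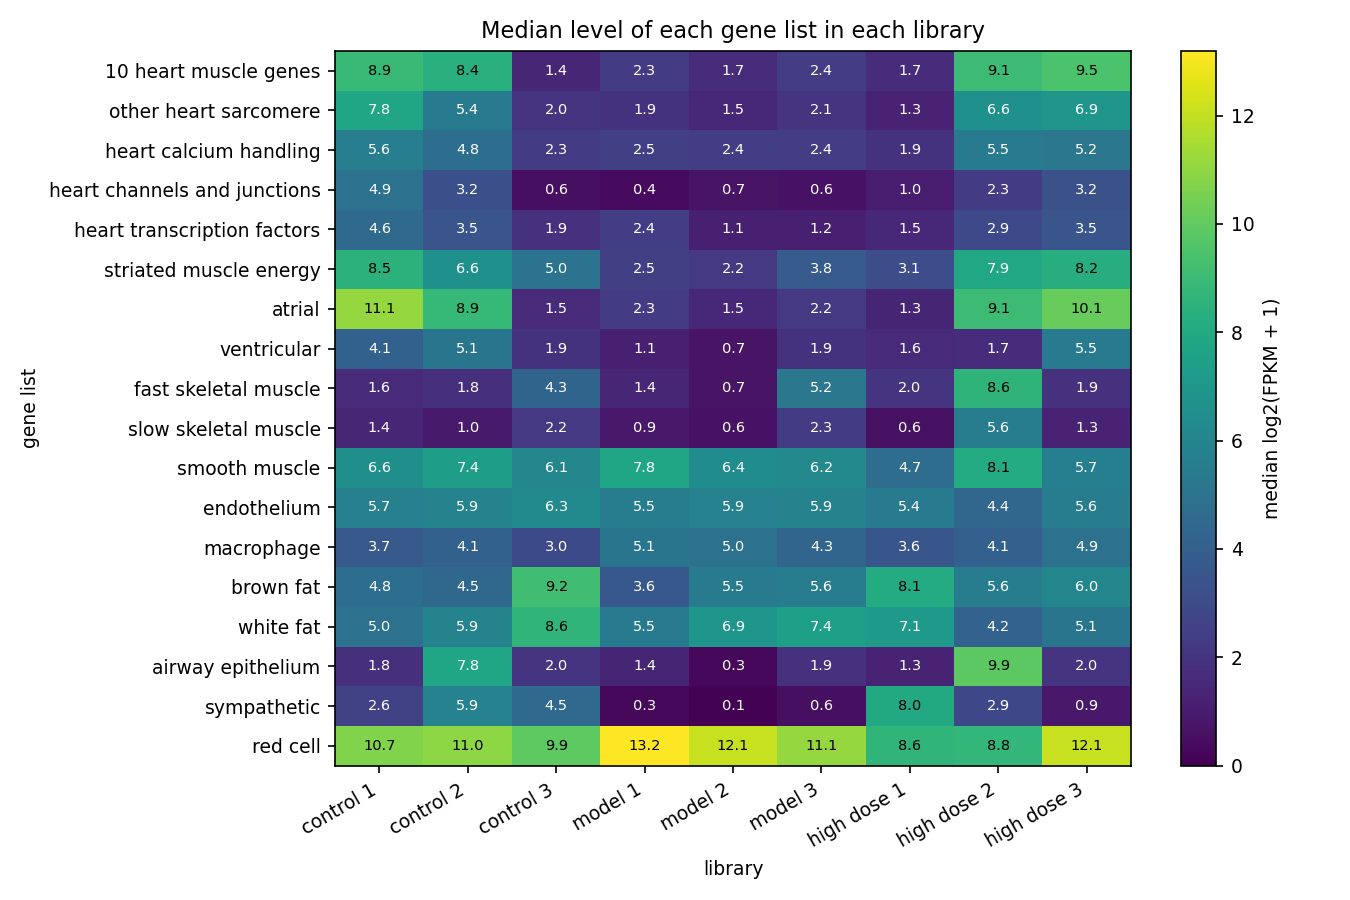
Median log2(FPKM + 1) of each gene list (rows) in each library (columns), printed in each cell and shown by colour. The 10 heart muscle genes and the other heart and atrial lists are highest in control 1, control 2, high dose 2 and high dose 3. The ventricular list is an exception, at 1.7 in high dose 2 against 1.9 in control 3. The heart transcription factor list is at 2.9 to 4.6 in control 1, control 2, high dose 2 and high dose 3. In the other libraries it is at 1.1 to 2.4. The gap is narrow between high dose 2, at 2.9, and model 1, at 2.4. The fast skeletal list is bright in high dose 2 and the sympathetic list in high dose 1.

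Likeness of profile was measured as the root mean square difference, over the 9 libraries, from the mean centred log2(FPKM + 1) profile of the 10 members. Among the members, Mybpc3 (0.34) and Tnnc1 (0.42) lay nearest that mean and Ryr2 (1.73) and Myl2 (2.33) farthest. Other genes were ranked without clones and predicted genes (names of Gm plus digits or ending in Rik) and without repeated names. The nearest of those ranked were Myoz2 (0.50), a Z-disc gene, Mybphl (0.51), a binding protein C relative of the atrium, and Actn2 (0.53), the Z-disc actinin. They were followed by Nppb, Myl4, Smpx, Lrrc10, Trim54, Hrc and Cox6a2, at 0.61 to 0.82. The level of Myoz2 was 532 FPKM in control 1 but 3.49 in control 3, and 320.0 and 414 in high dose 2 and 3. The least alike of the fixed heart lists were Cox8b (3.58), Hey2 (3.29) and Fabp3 (3.27). Cox8b is also a brown fat gene and was highest in control 3, at 2085 FPKM.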

How the data were processed

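Messenger RNA of 9 aortic arch libraries, 3 per group, was sequenced from an NEBNext Ultra kit, per the labels' protocols. The authors deposited 1 table of FPKM values for 21989 genes. The submitters' processing notes name the builds GRCm38.p5 and mm10. No label or header names the aligner, the counting tool or a strand setting. Because FPKM is set against the library total, abundant transcripts depress the values of the rest. Of the columns, those headed AS were taken as model, HD as high dose and Contorl as control. Of 17398 genes above 0 in at least 3 libraries, 17392 (99.97%) gave whole fragments in all libraries within 0.01 of a whole number. These counts served for counting intervals and to describe how many fragments lay behind a level, and entered no test. Fragment counts are not scaled for depth. They come from PCR reads without molecular identifiers, so the counting intervals may be too narrow. Relative depth ran from 56.3% (control 2) to 100% (model 1).

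The 12895 genes with at least 1 FPKM in at least 3 libraries, all 10 members among them, were fitted on log2(FPKM + 1) in R 4.3.3 with limma 3.58.1, which understates changes of low genes. The fit used all 9 libraries with a mean per group and empirical Bayes with a trend. Tests were two-sided with Benjamini-Hochberg adjustment over all genes tested, called at an adjusted p under 0.05. The procedure was also run on simulated data, with normal values drawn independently for each gene. Those data lack the split between libraries that the members share, so the run does not show how the fit behaves for them.

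Named were all 10 members, the genes of the ratio pairs, up to 3 of the highest mean FPKM in each other list, the 10 genes most like the members, the 3 least like them among the heart lists, and Apoe. The members and lists were chosen with earlier results of these data known. The settings also tried were a pseudocount of 0.1, the absence of a filter, a filter at a mean of 5 FPKM, median-ratio and TPM scaling, only the 2 groups compared, array weights, a replicate block and each library left out. Motifs were searched in RefSeq promoter windows. Antisense exons overlap Myh6 by 114 bases and Myh7 by up to 523, an opposite-strand gene overlaps Myl2 by 60 and Myl3 by 95, and Dnaaf3 overlaps Tnni3 by 86 on the same strand. Without the strand setting these fragments cannot be told apart. Figures were drawn with matplotlib 3.10.9.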

Additional observations from a re-analysis of the deposited data

How the results depend on the processing

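In model against control, 163 of 170 values of single members under the alternatives kept their direction and their side of the threshold, and the other 7 passed it, all with array weights. In that setting 684 genes differed, 5.3% of the 12895 tested, against 0 otherwise. Among them were 7 of the 10 members and 35 entries of the other lists. The 35 come from all the other lists together, heart genes and markers of other tissues alike. The count of members without overlap was 3 to 10 with each library left out, the 10 without control 3, where 24.8% of all genes were separated in that direction. Scaling moved the count too. With TPM scaling only Myh7 and Tnnc1 were separated, and with median-ratio scaling Myl3 joined Myh7, Myl2 and Tnnc1. The share of all genes was not taken in those scalings. In high dose against model, 169 of 170 were kept and 1 reversed, Myl2 without high dose 3, whose range was -0.26 to 3.87. Leaving out each library gave 0 to 45 genes that differed, 0 to 2 list members called and 3 to 9 members without overlap, the 9 without high dose 1, where 19.5% of all genes were separated. The 45 and the 2, the red cell genes Alas2 and Hbb-bt, came without high dose 3. Array weights gave 6 genes, Ciart, Cirbp, Dbp, Klf4, Mt1 and Ntrk3, and the fit of only the 2 groups gave 1, Chrm2, all named after their values were seen.

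In high dose against control, 140 of 170 were kept and 30 reversed. With each library left out, the log2 difference ran from -3.34 to 2.43 for Myh6, -1.48 to 1.08 for Myh7, -3.97 to 0.16 for Myl2, 0.16 to 4.19 for Myl3, -1.87 to 2.73 for Mybpc3, -2.48 to 3.44 for Actc1, -2.86 to 3.09 for Tnnt2, -3.19 to 2.48 for Tnni3, -2.60 to 2.06 for Tnnc1 and -1.05 to 1.31 for Ryr2. Array weights reversed Mybpc3 (-0.54), Actc1 (-0.92), Tnnt2 (-1.11) and Ryr2 (-0.71), and TPM scaling reversed Tnnt2 (-0.047). Between 0 and 1 members did not overlap, Myl3 without high dose 1 and Myl2 without high dose 3. Of the 10 genes most like the members, 6 were also among the 10 with a pseudocount of 0.1. The cause of these shifts was not tested.

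Deviations of libraries with the same replicate number correlated at -0.52 to 0.31, so the numbers were not taken to pair them. With a replicate block, 0 genes and 0 members were called in each comparison, as without it. Counting error is widest where the members were scarce, in control 3, model and high dose 1, where Mybpc3 rested on 7 to 82 fragments and Myl2 on 1 to 67.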
